A study of Mus musculus with 5 samples.

Results

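The CD antigens are cell surface proteins that carry a cluster of differentiation number, and 50 genes of this kind were represented by 64 probes on 2-colour arrays of mouse liver. They were taken as the probes whose gene symbol is Cd followed by digits and at most 2 further letters or digits, out of 9930 named genes and 20355 probes in all. Each of 5 arrays carried liver RNA of 1 male mouse, 17 weeks old, labelled Pitx3eyl-/-, a line named Eyeless that is mutant for the transcription factor gene Pitx3. The other channel held RNA pooled from wild-type mice, 4 of them per the sample labels and 6 per the labelling protocol. The mutant RNA was in Cy5 on replicates 1, 2 and 4 and in Cy3 on replicates 3 and 5, and all 5 arrays share the pool. No wild-type mouse was hybridised singly, so the pool is 1 control sample. The labels do not state the genetic background, nor the sex or age of the pooled animals. Pitx3 itself had 0 probes under its name and could not serve as a check of the labels.

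CD antigens serve as handles for immune cells because many are largely restricted to a lineage. The CD3 chains pass on the signal of the T cell receptor, CD8 binds MHC class I beside it, CD79B carries the signal of the B cell receptor, and CD68 marks macrophages. In liver, such transcripts come mainly from resident lymphocytes and Kupffer cells, while tetraspanins such as CD81 and regulators such as CD59A are also made by hepatocytes and other tissue cells. In RNA of whole liver, fewer cells of a lineage and less RNA per cell cannot be told apart. The members fell into 13 T and NK cell genes (21 probes), 3 B cell genes (3 probes), 12 myeloid and antigen-presenting genes (14 probes) and 15 broadly expressed genes (16 probes). The remaining 7 genes (10 probes) were pan-leukocyte, vascular or other members.

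A value is the log2 ratio of the 2 channels of an array, read as mutant over pool, and 1 unit is a doubling. That direction is likely and not known: it rests on the labels and on the code for unmeasurable ratios, which had opposite signs in the 2 dye orientations. Between 13576 and 15892 probes were measured per array, and array medians ran from -0.19 to 0.23. Pairs of arrays correlated between -0.26 (replicates 1 and 5) and 0.11 (replicates 3 and 5) over all probes. Pairs of the same dye orientation ran from -0.02 (replicates 1 and 4) to 0.11. Pairs of opposite orientation were all negative, the weakest at -0.05 (replicates 4 and 5). The cause of this difference was not tested. The number of arrays, 5, limits the precision. Names of single probes carry a further limit: probes of the same gene lay on the same side of the array median in 50.6% of 14494 pairs, against 53.5% for 37437 pairs of neighbouring rows with different names. Every value below is therefore that of a probe under its annotated name.

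Cd3d and Cd3g encode 2 chains of the CD3 complex, and both were measured on all 5 arrays. Their RefSeq promoter windows (build GRCm38.p6) run in opposite directions, with start sites 1355 bases apart. The windows are shown because the neighbours differed so much in spread, beside that of Cd247, the zeta chain of the complex, which had the most probes. Each runs 5′ to 3′ from 250 bases before to 50 after the start site. Capitals mark matches, on either strand, to the motif GGAAGT of ETS factors, AGATAA of GATA factors, CAGCTG (an E box), TGTGGT of RUNX factors or TATAAA (the TATA box), and no matches overlap within these windows.
Cd3d: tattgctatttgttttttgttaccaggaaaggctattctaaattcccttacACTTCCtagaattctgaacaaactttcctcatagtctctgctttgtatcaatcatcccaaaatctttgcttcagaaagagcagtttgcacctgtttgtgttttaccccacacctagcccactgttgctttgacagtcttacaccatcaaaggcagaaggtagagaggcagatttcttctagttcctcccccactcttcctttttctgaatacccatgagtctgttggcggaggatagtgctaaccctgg
Cd3g: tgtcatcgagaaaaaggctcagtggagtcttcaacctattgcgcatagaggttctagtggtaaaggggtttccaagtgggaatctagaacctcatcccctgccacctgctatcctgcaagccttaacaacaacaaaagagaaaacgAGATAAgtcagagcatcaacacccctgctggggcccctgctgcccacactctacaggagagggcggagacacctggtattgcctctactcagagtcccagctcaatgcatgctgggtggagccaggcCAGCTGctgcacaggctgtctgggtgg
Cd247: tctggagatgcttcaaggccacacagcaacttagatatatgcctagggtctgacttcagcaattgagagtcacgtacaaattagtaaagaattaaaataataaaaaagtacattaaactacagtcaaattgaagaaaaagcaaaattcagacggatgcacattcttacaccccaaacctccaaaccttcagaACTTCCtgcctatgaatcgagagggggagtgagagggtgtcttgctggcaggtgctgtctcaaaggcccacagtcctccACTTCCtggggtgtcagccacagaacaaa
The windows lie at chr9:44981536-44981835 (plus strand), chr9:44980382-44980681 (minus strand) and chr1:165788431-165788730 (plus strand). Cd3d held 1 match, to the ETS motif, Cd247 held 2 to the same motif, and Cd3g held 1 to the GATA motif and 1 to the E box. Windows were at hand for 34 of the 50 member genes. The ETS motif was in 13 of 40 member windows and in 23.8% of all 32851 windows. By class, it was in 4 of 8 T and NK cell, 4 of 8 myeloid, 1 of 2 B cell and 1 of 3 remaining windows. Of the 19 windows of broadly expressed genes, which stand for 13 genes, 3 had it. The RUNX motif was in 8 of 40 member windows and 16.8% of all, the GATA motif in 5 of 40 and 11.2%, the E box in 7 of 40 and 16.3%, and the TATA box in 4 of 40 and 13.6%. These matches describe the letters only.

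No CD antigen that could be tested passed the test against the wild-type pool, for which 37 of the 64 probes had enough values. limma called 0 of these 37 probes, which had values on at least 4 arrays and stand for 33 genes, and 0 also had an unadjusted p under 0.05. Over all 11300 probes tested, limma called 0 (0%), and 4.16% had an unadjusted p under 0.05. Each member had an adjusted p of 0.999 in limma. Estimates lay above 0 for 22 and below 0 for 15 members, with a median of 0.04, the same as the median of 0.04 over all probes. Their median size was 0.22, against 0.32 over all probes. They ran from -0.98 for Cd52 to 2.04 for Cd83, and with the signs of both Cy3 arrays turned from -2.60 for Cd9 to 1.15 for Cd37. Turning those signs makes the mutant coefficient and the dye term of the model change places. Each turned estimate is therefore the dye term and no separate result.

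**Figure D1:**
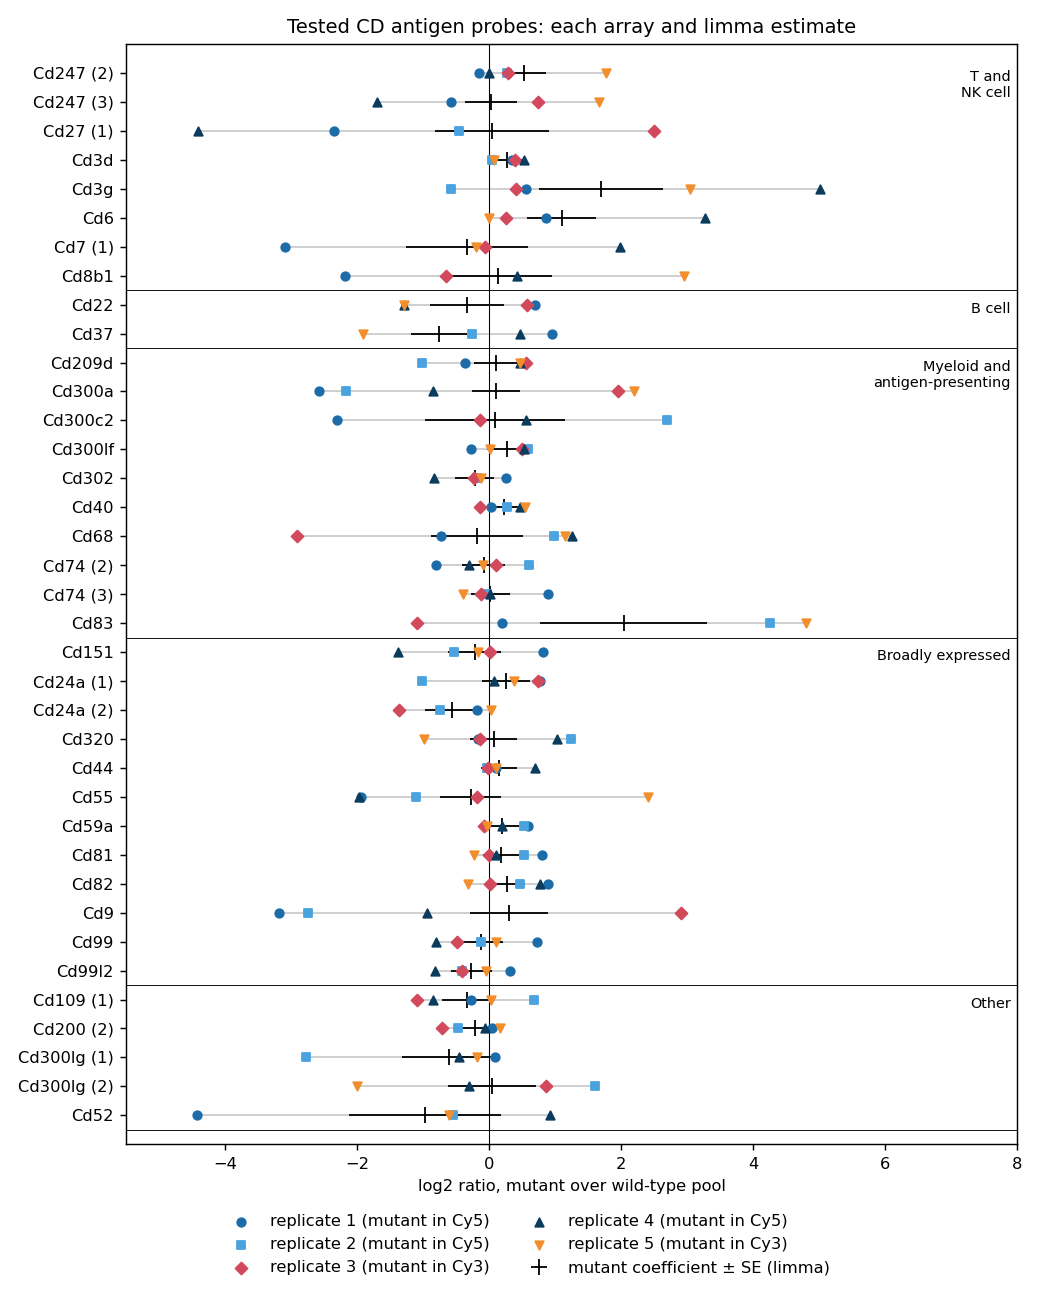
Log2 ratio (mutant over pool) on the x axis for the 37 tested CD antigen probes, grouped by class. Coloured points are single arrays, grey lines their range, and black ticks with bars the mutant coefficient with its SE from limma. Cd3d, Cd40 and Cd44 form tight clusters near 0, while Cd27, Cd9 and Cd83 spread over several units.

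T and NK cell antigens had the least complete data of the 3 larger classes and a wide spread among the probes tested. Only 3 of their 21 probes (14.3%) had values on all 5 arrays, against 31.3% of all probes, and 8 probes of 7 genes entered the test. Of these 8 estimates 7 lay above 0, with a median of 0.20. None passed limma's test. That median was -0.36 when the signs of both Cy3 arrays were turned, so its direction depends on how those arrays were deposited.

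Cd3d, the delta chain, had log2 ratios of 0.35, 0.04, 0.40, 0.53 and 0.07 on replicates 1 to 5. It was the only one of the 23 members measured on all 5 arrays whose values all had the same sign, while 381 of the 6364 such probes overall (5.99%) did. These are signs of the deposited values, without subtraction of array medians. On replicate 5 the 0.07 of Cd3d lay below the array median of 0.23. With the Cy3 arrays turned, Cd3d had mixed signs, and Cd300a and Cd59a were the 2 members with 1 sign throughout, beside 511 of all such probes (8.03%). The estimate was 0.27 ± 0.27 (SE, n = 5), so it did not stand apart from 0. Cd3g, the gamma chain, had 0.56, -0.59, 0.41, 5.01 and 3.04 on replicates 1 to 5. Replicates 4 and 5 were high and the other arrays near 0, in both dye orientations, and the estimate was 1.69 ± 0.95 (SE, n = 5). Cd3e, the epsilon chain, had values on 2 arrays only, -0.64 on replicate 4 and -1.79 on replicate 5, and the code for an unmeasurable ratio on replicate 2. High values on both replicates 4 and 5 were thus seen for Cd3g and not for Cd3d or Cd3e.

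Cd247, the zeta chain that carries most of the signalling motifs, was present as 4 probes. On replicate 5 these stood at 1.75, 1.77, 1.67 and 1.55, all above the array median of 0.23. On replicate 3 the first 3 probes had -2.32, 0.28 and 0.74, and on replicate 4 they had 0.21, -0.00 and -1.70. On replicate 2 the second probe had 0.26 and the fourth -0.01. All measured probes thus lay within 0.27 of each other on replicates 2 and 5, and spanned more on the other arrays. The second probe, measured throughout, had -0.15 on replicate 1, and its estimate was 0.53 ± 0.33 (SE, n = 5). The third probe gave 0.03 ± 0.40 from 4 arrays, with a mean of -1.14 where the mutant was in Cy5 and 1.20 where it was in Cy3.

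The coreceptor CD8 is a pair of an alpha and a beta chain on cytotoxic T cells. Cd8a had 3 probes, none measured on 4 arrays. The first had 1.13, 3.40 and 2.75 on replicates 2, 3 and 5, where the second had -0.97, -0.14 and 2.97. The third had -0.13, 1.97 and 0.69 on replicates 1, 4 and 5 and the code on replicate 3. All 3 probes of Cd8a were above the array median on replicate 5, while on replicates 2 and 3 the first probe was high and the second was not. The value of the second probe on replicate 3 equalled the most frequent value of that array. With the probes averaged per gene, the estimate was 1.26 ± 0.42 (SE, 5 arrays), and its adjusted p from limma was 0.998. Different probes entered this average on different arrays, and all 3 only on replicate 5. Of 34 member genes tested in this way, Cd8a alone had an unadjusted p under 0.05 in limma. The share over all genes is not given here, so this count is not read as a result about the members. Cd8b1 had -2.19, -0.66, 0.42 and 2.96 on replicates 1, 3, 4 and 5 and an estimate of 0.13 ± 0.83.

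**Figure D2:**
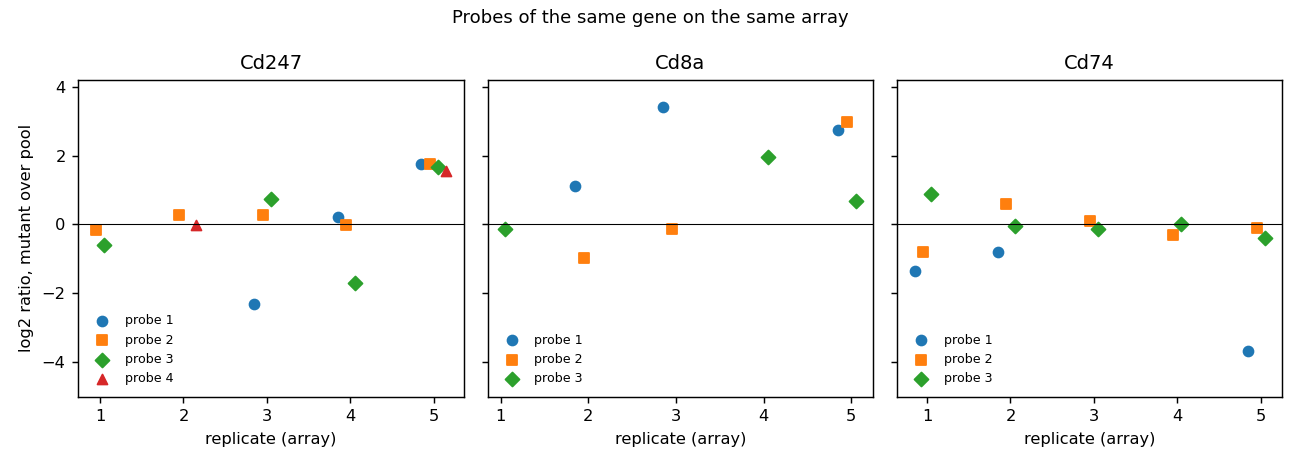
Log2 ratio (y axis) of each probe of Cd247, Cd8a and Cd74 on replicates 1 to 5 (x axis), with a symbol per probe. The 4 Cd247 probes coincide at 1.55 to 1.77 on replicate 5 and scatter on replicates 3 and 4.

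Several receptors that tune T cell activation had values far from 0 on 1 or more arrays. Cd6, an adhesion receptor that binds ALCAM, had 0.86, 0.25, 3.27 and -0.00 on replicates 1, 3, 4 and 5. Only replicate 4 was far from 0, and the estimate was 1.09 ± 0.52. The value on replicate 4 differed from the most frequent value of its array by the log2 of a ratio of small whole numbers. Such a value is called a simple ratio here, and without it Cd6 had too few arrays to be tested. Cd7, a receptor of the immunoglobulin family, had -3.10, -0.07, 1.98 and -0.20 on the same 4 arrays, with an estimate of -0.35 ± 0.92, and its other probe had 3.45 on replicate 3 and -1.08 on replicate 5. Cd27, a TNF receptor family member that supports T cell survival, had -2.36, -0.47 and -4.42 on replicates 1, 2 and 4 and 2.49 on replicate 3. It was low on each Cy5 array and high on its only Cy3 array, and its estimate was 0.04 ± 0.86. Its other probe had 0.84 on replicate 2, where the first was below 0, and -1.05 on replicate 4. Cd28, the main costimulatory receptor, had -1.27, 0.86 and 3.79 on replicates 2, 3 and 4, the last 2 at simple ratios. Cd5, which dampens T cell receptor signalling, had -2.66 on replicate 2, at a simple ratio, and 2.91 on replicate 4. Cd96, an NK and T cell receptor, had -2.02 and -0.25 on replicates 1 and 3. Each of the 2 probes of Cd2, an adhesion receptor, was measured on 1 array, at -0.28 on replicate 1 and -0.15 on replicate 3. Both probes of Cd27, the other probe of Cd7 and 1 probe of Cd2 also had 1 simple-ratio value each. So did Cd3d, the second Cd8a probe and the first Cd247 probe, the last at -2.32 on replicate 3. Cd8b1 had 2 such values.

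As a class, T and NK cell probes had array medians of -0.28, -0.24, 0.28, 0.47 and 1.61 on replicates 1 to 5. Replicate 5 stood out by 1.38 from the median of all its probes, with 9 of 14 T and NK cell probes above it. Of those 14 probes, 7 belong to Cd247 and Cd8a. Without these 2 genes, a comparison chosen after the data were seen, the median on replicate 5 was -0.00 from 7 probes, of which 2 lay above the array median. It was then 1.25 on replicate 4 from 10 probes. With probes averaged per gene, the medians were 0.88 on replicate 5 (8 genes) and 1.97 on replicate 4 (11 genes). T and NK cell markers outside the CD names had a median of -0.07 on replicate 5 and -0.49 on replicate 4, from 12 and 11 probes. They included Ptprc, the pan-leukocyte phosphatase CD45, at 0.60 ± 0.56 and the adaptor gene Fyb at -0.75 ± 0.65.

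**Figure D3:**
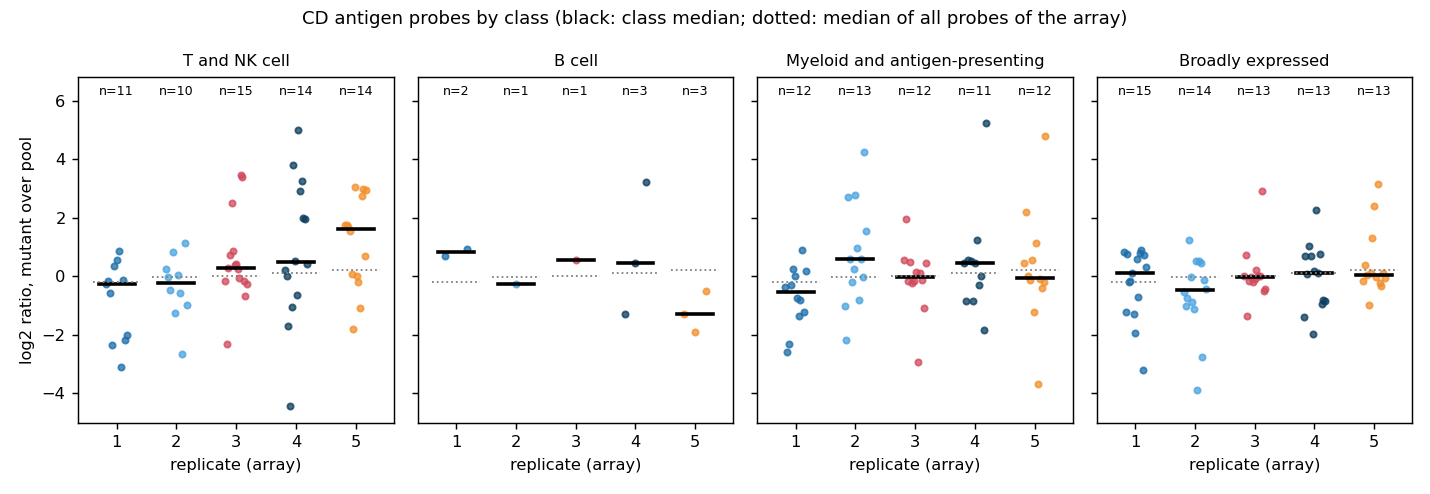
Log2 ratios (y axis) of all measured CD antigen probes on replicates 1 to 5 (x axis) in 4 classes. Black lines are class medians, dotted lines the median of all probes of the array, and n is the number of probes. The T and NK cell median is 1.61 on replicate 5, where the broadly expressed median is 0.03.

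B cell antigens were few, and 0 of their 3 probes were measured on all 5 arrays. Cd22, an inhibitory lectin of the B cell surface, had 0.69, 0.56, -1.30 and -1.29 on replicates 1, 3, 4 and 5, and an estimate of -0.33 ± 0.56. Cd37, a leukocyte tetraspanin most abundant on B cells, had 0.95, -0.27, 0.46 and -1.91 on replicates 1, 2, 4 and 5. Its estimate was -0.76 ± 0.43. It was lowest on replicate 5, its only Cy3 array, where all 3 B cell probes lay below the array median. Cd79b, a signalling chain of the B cell receptor, had 3.24 on replicate 4 and -0.50 on replicate 5. The median of both tested estimates was -0.55, and it was 0.59 with the Cy3 arrays turned. Without replicate 5 only Cd22 could be tested, at 0.13. B cell markers outside the CD names had 2 of 6 tested probes above 0 and a median of -0.14. The kinase gene Blk stood at 1.18 ± 0.59 and the lineage factor gene Ebf1 at -0.53 ± 0.55.

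Myeloid and antigen-presenting members were measured more completely, with 8 of 14 probes (57.1%) on all 5 arrays. Of 10 tested probes 7 lay above 0, with a median of 0.09, and none passed limma's test. Cd40, a receptor by which antigen-presenting cells receive T cell help, had the smallest spread of all members, with 0.02, 0.26, -0.14, 0.46 and 0.54 on replicates 1 to 5. Its estimate was 0.22 ± 0.28 and its SD between arrays 0.20, after each array's median was subtracted. Of its 5 values, 2 equalled the most frequent value of their array (replicates 3 and 4), which is a simple ratio of 1. Without simple-ratio values it had too few arrays to be tested. Cd300lf, an inhibitory receptor of myeloid cells, had -0.28, 0.58, 0.50, 0.53 and 0.01, and an estimate of 0.26 ± 0.30. Cd302, a C-type lectin of macrophages, had 0.25, -0.19, -0.23, -0.84 and -0.13, and -0.22 ± 0.30.

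Other myeloid members were spread widely. Cd83, a marker of mature dendritic cells, had 0.19, 4.25, -1.09 and 4.80 on replicates 1, 2, 3 and 5. It was high on 1 array of each dye orientation and near or below 0 on the others, and its estimate was 2.04 ± 1.27, or 0.18 with the Cy3 arrays turned. Cd300a, an inhibitory receptor, had -2.58, -2.17 and -0.86 on the Cy5 arrays (replicates 1, 2 and 4) and 1.96 and 2.20 on the Cy3 arrays. Its values split by dye orientation without overlap, with a mutant coefficient of 0.10 ± 0.36. Cd68, the macrosialin of macrophage lysosomes, had -0.73, 0.98, -2.92, 1.25 and 1.15 on replicates 1 to 5 and an estimate of -0.19 ± 0.70. Cd300c2 ran from -2.31 to 2.69 and Cd209d, a relative of DC-SIGN, from -1.02 to 0.56. Cd86, a ligand of CD28, had 1.56, 0.44 and 5.24 on replicates 2, 3 and 4, and Cd80, its partner ligand, -1.22, -1.82 and -0.20 on replicates 1, 4 and 5. Cd5l, a protein secreted by Kupffer cells, had 2.77, 0.14 and -1.23 on replicates 2, 3 and 5.

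Cd74 encodes the invariant chain that guides MHC class II molecules, and 3 probes carried it. The second probe had -0.80, 0.60, 0.11, -0.31 and -0.10 on replicates 1 to 5, and the third 0.89, -0.04, -0.13, 0.01 and -0.39. They differed in sign on replicates 1 to 4 and were both below 0 on replicate 5. Their estimates were -0.08 ± 0.32 and 0.01 ± 0.29 (SE, n = 5). The first probe had -1.36, -0.80 and -3.67 on replicates 1, 2 and 5, and was below both others on each of these arrays. The partners of CD74 in antigen presentation had 7 of 10 tested probes above 0 with a median of 0.11, led by H2-DMa at 2.08 ± 1.16 and H2-DMb1 at 0.82 ± 0.50, the chains that load peptides on class II molecules. Neither passed limma's test.

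Kupffer cell and myeloid markers outside the CD names had 3 of 9 tested probes above 0 and a median of -0.18. The lysosomal protease gene Ctss had 0.23, 1.78 and 0.62 on the Cy5 arrays and 3.94 on replicate 3, its only Cy3 array. Its estimate was 2.41 ± 0.48 from these 4 arrays, with 1 value at a simple ratio. The lysozyme gene Lyz2 stood at -0.54 ± 0.39, and neither passed limma's test. Array medians of that list ran from -0.17 on replicate 3 to 0.91 on replicate 5, while those of the myeloid CD antigens ran from -0.55 on replicate 1 to 0.58 on replicate 2. The array with the highest median thus differed between the lists.

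Broadly expressed antigens had the most complete data, with 10 of 16 probes (62.5%) on all 5 arrays, and lay near 0. Of 12 tested probes 7 were above and 5 below 0, with a median of 0.11. Cd44, the hyaluronan receptor, had 0.10, -0.04, -0.02, 0.69 and 0.11 on replicates 1 to 5. All arrays but replicate 4 lay within 0.15 of each other, and the estimate was 0.15 ± 0.28. Cd59a, which blocks the membrane attack complex of complement, had 0.58, 0.52, -0.08, 0.19 and -0.04, and 0.19 ± 0.26. Its close copy Cd59b, which may share signal with it, had -0.72, -3.89 and 0.22 on replicates 1 to 3.

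The tetraspanins organise other membrane proteins into patches. Cd81 had 0.81, 0.52, 0.00, 0.10 and -0.23 on replicates 1 to 5, and Cd82 had 0.88, 0.47, 0.01, 0.76 and -0.33. Both were lowest on replicate 5 and highest on replicate 1, and their estimates were 0.18 ± 0.27 and 0.27 ± 0.26. Cd151, which binds laminin receptors of the integrin family, ran from -1.38 on replicate 4 to 0.81 on replicate 1. Cd9 had -3.19, -2.75 and -0.94 on the Cy5 arrays and 2.90 on replicate 3, its only Cy3 array, and an estimate of 0.30 ± 0.59. The arrays of the 2 dye orientations had opposite signs. Cd63, the tetraspanin of late endosomes, had 2 values, 2.27 on replicate 4 and 3.16 on replicate 5, and was not tested. Tetraspanin genes outside the CD names had 4 of 10 tested probes above 0 and a median of -0.17, with Tspan33 at -1.34 ± 0.70 and Tspan2 at 0.58 ± 0.34. Integrin genes, their partners, had 6 of 15 above 0 and a median of -0.06, with Itga7 at -0.64 ± 0.41 and Itgb5 at -0.59 ± 0.42.

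Adhesion and complement-regulating members showed both signs. Cd55, which speeds the decay of complement convertases, had -1.95, -1.12 and -1.97 on the Cy5 arrays and -0.18 and 2.40 on the Cy3 arrays, and an estimate of -0.28 ± 0.46. The 2 probes of Cd24a, a small glycoprotein of immature and bile duct cells, gave 0.25 ± 0.36 and -0.57 ± 0.40 and had opposite signs on replicates 1 and 3. At the second probe, 3 of the 4 values were simple ratios, and that on replicate 1 equalled the most frequent value of its array. Cd99l2 had 0.32, -0.42, -0.42, -0.83 and -0.05, and -0.27 ± 0.31, beside its relative Cd99, which helps leukocytes cross vessel walls, at -0.13 ± 0.34. Both were highest on replicate 1 and lowest on replicate 4. Cd320, the receptor for transcobalamin, had 0.06 ± 0.35. Cd47, the signal that keeps phagocytes from engulfing a cell, had -1.29, -0.87 and 1.30 on replicates 1, 2 and 5, and Cd164, a sialomucin, had -1.22 and 0.69 on replicates 1 and 4.

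The remaining antigens had 1 of 5 tested probes above 0. Cd52, a short glycoprotein of lymphocytes, had -4.43, -0.55, 0.92 and -0.61 on replicates 1, 2, 4 and 5, and an estimate of -0.98 ± 1.15, or -0.37 with the Cy3 arrays turned. Replicate 1 lay far below the other arrays. Cd200, a ligand that restrains macrophages, had 0.05, -0.47, -0.72, -0.06 and 0.16 at its second probe, with -0.22 ± 0.29, and -1.54 on replicate 5 at its first. Cd109, a coreceptor that binds TGF-beta, had -0.34 ± 0.37 at its first probe, and its second had 4.84 on replicate 5, where the first had 0.03. The 2 probes of Cd300lg, found on capillary endothelium, gave -0.62 ± 0.70 and 0.04 ± 0.67 and differed by 4.38 on replicate 2. Cd34, a marker of blood vessel and progenitor cells, had -0.19, -1.18 and -1.15 on replicates 1, 2 and 5. Cd48, a ligand of CD2, had 0.22 and -1.16 on replicates 2 and 5, and Cd248, a marker of pericytes, 0.70, -2.14 and 0.10 on replicates 1, 2 and 5.

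How often a probe was measured and how far its arrays spread differed between the classes. The SD between arrays of the tested probes had a median of 1.73 for T and NK cell antigens, against 0.62 for myeloid, 0.65 for broadly expressed members and 0.98 for all tested probes. It was 1.33 for the 2 B cell probes and 1.30 for the 5 probes of the remaining antigens. The classes lay closer together among probes measured on all 5 arrays, where the medians were 0.66 (3 T and NK cell probes), 0.56 (8 myeloid probes), 0.65 (10 broadly expressed probes) and 0.73 (6364 of all probes). Values at simple ratios, of whole numbers to 10, accounted for 20.3% of T and NK cell values, 11.7% of myeloid, 11.8% of broadly expressed and 14.4% of all values. Spot brightness was not analysed here, and its part in these differences was not tested. Of the 37 tested members, 7 had an SD under 0.5 (18.9%), close to the 18.5% of all tested probes, and these were Cd40, Cd3d, Cd44, Cd200, Cd300lf, Cd59a and Cd302. Hepatocyte markers had 9 of 17 probes (52.9%) on all 5 arrays, 5 of 13 tested probes above 0 and a median SD of 0.60. Being ratios of mutant over pool, these values cannot check the labelled tissue. Among them, Tat stood at -0.78 ± 0.27 and the iron carrier gene Trf at 1.13 ± 0.49, and neither passed limma's test. Erythroid and platelet markers had 7 of 12 above 0, with Alas2 at 0.45 ± 0.29 and Gp9 at -0.71 ± 0.67.

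**Figure D4:**
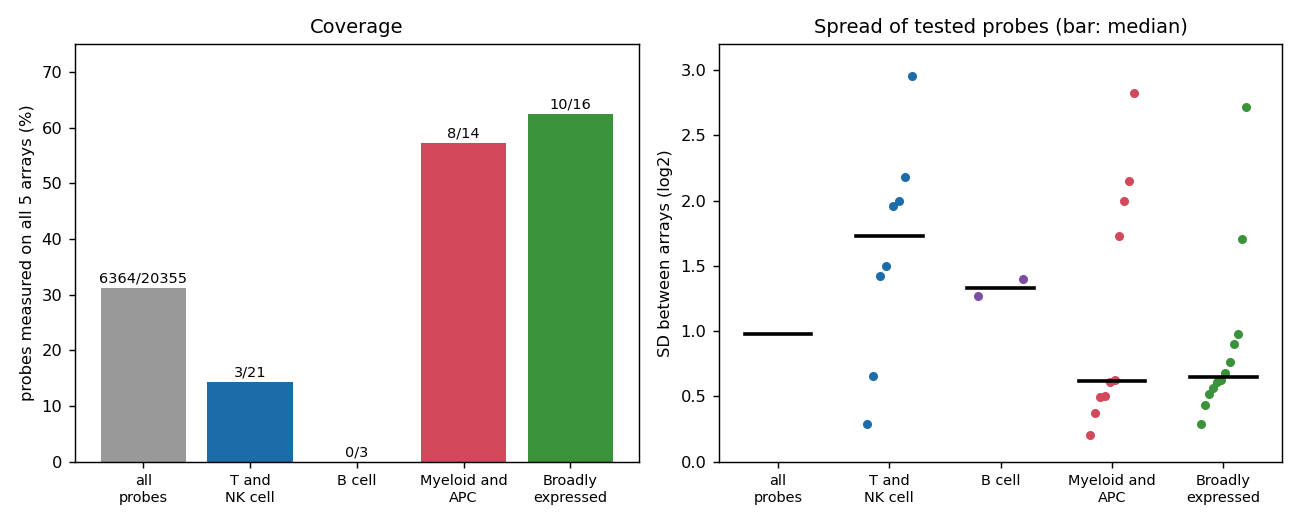
Left, bars give the share of probes measured on all 5 arrays (y axis, percent) for all probes and 4 classes of CD antigens (x axis, APC for antigen-presenting), with counts above the bars. Right, points give the SD between arrays (y axis, log2 units) of each tested CD antigen probe and black lines the medians. T and NK cell probes are measured on all arrays in 14.3% and broadly expressed ones in 62.5%.

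The dye term of the model describes how members differed between the 2 dye orientations, and is positive where values are higher with the mutant in Cy5. Its size exceeded that of the mutant coefficient in 18 of 37 members, and in 5973 of the 11300 probes overall. limma called 0 members for it, and 5 had an unadjusted p under 0.05, where 7.38% of all probes did. These were Cd300a at -1.97 ± 0.36, Cd9 at -2.60 ± 0.59, Cd27 at -2.45 ± 0.86, Cd55 at -1.39 ± 0.46 and the third Cd247 probe at -1.17 ± 0.40. All 5 were lower with the mutant in Cy5, and they belong to the T and NK cell, myeloid and broadly expressed classes. For Cd9 and Cd27 a single Cy3 array (1 array) entered the fit.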

How the data were processed

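Liver RNA of 5 mutant mice was measured against a wild-type pool, 1 array each, after indirect labelling of total RNA per the labels' protocols. The values deposited by the authors are log2 ratios, as read from the values themselves. How the images were scanned, corrected for background and normalized is not given in the sources used here. Values of absolute size over 12 (788, of which 2 in members) were codes and set to missing. Gene symbols are those of the platform annotation: 14030 probes had 1 symbol, 5 several and 6320 are unnamed here, and 13994 probes, all 64 members among them, matched the GRCm38.p6 gene table by gene ID. No symbol was changed (0). No column was left unused (0). Cd36, an example in the member rule, had 0 probes.

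Probes with values on at least 4 arrays were fitted in limma 3.58.1 (R 4.3.3) with an intercept, the mutant coefficient, and a dye term. The intercept was tested against 0, with Benjamini-Hochberg adjustment over all 11300 probes at 0.05. The pool is 1 control sample, so variation among wild-type mice does not enter, and p-values measure the spread between these 5 samples. limma's prior had 2.24 degrees of freedom. The fit was tested on simulated data. ± values are SEs. Classes are described without a test. Genes named were the 5 lowest p per class, any with an unadjusted p under 0.05 for either term, genes with several tested probes, the extremes of spread per class, and the 2 lowest p of each marker list. The remaining members were added so that each is accounted for. Members and lists were chosen with earlier results of these data known.

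Alternatives covered the filter, centring, quantile normalization, the dye term, the codes, the sign of the Cy3 arrays, averaging per gene, the variance prior, values at simple ratios, and each left-out replicate.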

Additional observations from a re-analysis of the deposited data

Results flagged for a closer look

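Single arrays stood far from the other arrays for 3 of 35 sets of values examined, where chance alone flags about 1 in 20. Cd44 had 0.69 on replicate 4, while its next value was 0.11. The second Cd247 probe had 1.77 on replicate 5, against 0.28 for its next value, and the other 3 probes of that gene were also at 1.55 to 1.75 there. The median of the broadly expressed antigens was -0.48 on replicate 2, while the other arrays lay between -0.02 and 0.10.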

How the results depend on the processing

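limma called 0 members for the mutant and for the dye coefficient under every alternative in which it was fitted. Members with an unadjusted limma p under 0.05 numbered 0 to 5 over the alternatives. There were 5 of 37 with the Cy3 arrays turned, where both coefficients change places, so these are the probes listed for the dye term. There were 3 of 45 without replicate 4, 2 of 43 without replicate 1, 2 of 40 without replicate 3 and 2 of 50 with 3 arrays sufficing. Quantile normalization gave 1 of 37, and probes averaged per gene 1 of 34. The share over all probes is given here only for the main fit, 4.16%, and for the dye term, 7.38%. The other counts are therefore not read as results about the members. The median of all members, 0.04, ranged from -0.09 without simple-ratio values to 0.12 without replicate 1, and was -0.05 without replicate 2. The myeloid median, 0.09, was 0.28 without replicate 1, -0.01 without replicate 4 and -0.09 without simple-ratio values. Leaving out a replicate also changes which probes can be tested. Over left-out replicates, the T and NK cell median, 0.20, ranged from 0.16 (without replicate 5) to 0.85 (without replicate 3). It was 0.68 without replicate 1, 0.40 without replicate 4, 0.13 with codes kept as values and -0.36 with the Cy3 arrays turned. Without the probes of Cd247 and Cd8a, an alternative chosen after seeing the data, it was also 0.20. It could not move: no Cd8a probe was tested, and the 2 Cd247 estimates, 0.53 and 0.03, lay on either side of it. The broadly expressed median, 0.11, ranged over left-out replicates from 0.03 without replicate 4 to 0.12 without replicate 3, and was 0.05 without replicate 2. It was 0.01 without simple-ratio values and 0.02 with quantile normalization or no dye term. The B cell median, -0.55, ranged from -0.87 (without replicate 1) to -0.31 (without replicate 4) where both probes stayed in the test. Without replicate 5 only Cd22 was tested, at 0.13. The median was 0.59 with the Cy3 arrays turned, and it has no value where all 5 arrays are required. The cause was not tested. The T and NK cell median SD of 0.66, over 3 probes, was 1.5 over 7 probes without replicate 2 and 1.31 over 4 probes without replicate 5. These are different sets, as probes missing only on the left-out array then enter. Of the 30 named probes, 12 kept their sign under all alternatives that gave a value. No paired analysis was possible because there is 1 group, set against a shared pool.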
